A study of Mus musculus with 16 samples.

Results

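Nucleus pulposus tissue of 6-month-old mice with a conditional HIF-2α deletion was compared with nucleus pulposus tissue of 14-month-old control mice, to ask which genes of the younger knockout already lay at the level of the older control. The study profiled mouse nucleus pulposus, dissected from intervertebral discs, on Affymetrix arrays in 4 groups of 4 arrays: controls at 6 and at 14 months (6M CT, 14M CT) and knockouts at 6 and at 14 months (6M cKO, 14M cKO). Controls are labelled HIF-2αf/f and knockouts FoxA2Cre; HIF-2αf/f, so both carry the floxed allele and only the knockouts carry Cre, driven by Foxa2, which marks the notochord lineage that forms the nucleus pulposus. The comparison used the 4 arrays titled 6M cKO and the 4 titled 14M CT, 8 of 16 in all, and age and genotype change together in it. Its members were the 18732 of 22206 probe sets that have a platform gene symbol and do not carry an X or Y chromosome identifier. They stand for 18680 distinct symbols. Values are the authors' log2 intensities, on which a difference of 1 is 2-fold, and every difference below is 14M CT minus 6M cKO unless said otherwise. The labels do not say whether each array is 1 mouse or which disc levels were pooled, so p-values measure the spread between these arrays, which may be technical.

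The nucleus pulposus is the hydrated, avascular core of the disc. Its cells live at low oxygen and rely on glycolysis, and the hypoxia-inducible factors HIF-1α and HIF-2α (encoded by Hif1a and Epas1) are constitutively active transcription factors in them. Prolyl hydroxylases such as EGLN1 mark the α subunits for VHL-dependent degradation when oxygen is sufficient, and HIF dimers bind DNA at short ACGTG-containing sites in genes for glucose uptake, glycolysis, mitophagy and the hydroxylases themselves. Immediate early genes are transcription factors and phosphatases whose mRNA rises within minutes of growth factor, calcium, mechanical or stress signals. Ageing discs are known for loss of notochordal keratin-rich cells, changed matrix and fibrosis.

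The median of the sensory receptor genes on the arrays, taken here as background, was 5.01 to 5.59 in 6M cKO and 4.51 to 5.02 in 14M CT. Of 17 markers of the tissue 14 had a group mean above it in 6M cKO (all but Foxa1, Car12 and Pax1) and 15 in 14M CT (all but Car12 and Pax1). Krt19 read 16.86 to 17.51 in 6M cKO and 16.67 to 17.47 in 14M CT, Cd24a read 17.78 to 18.52 and 18.01 to 18.48, and the notochord factor Noto read 6.93 to 8.38 and 7.07 to 7.91. Brachyury (T) was not among the probe sets measured. Correlations between arrays were 0.942 to 0.987 within groups and 0.897 to 0.972 between 6M cKO and 14M CT. Genes of the Y chromosome marked 3 of 4 6M cKO arrays (2, 3 and 4) and 1 of 4 14M CT arrays (array 4) as male, and 0 of 4 6M CT arrays. The mean over 13 neutrophil and marrow myeloid markers was 5.46 to 9.25 in 6M cKO, highest on arrays 3 and 4, and 4.66 to 4.96 in 14M CT. The mean over 13 skeletal muscle markers was 5.25 to 5.49 in 6M cKO and 5.22 to 7.50 in 14M CT, highest on array 4. The interquartile range of an array was 3.34 to 3.70 in 6M cKO and 3.64 to 4.14 in 14M CT, so the older arrays were spread more widely. The part of sex, other cells and scaling in the results was not tested beyond the values given beside them.

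The deleted gene did not separate the groups. Epas1 read 10.41, 9.79, 10.63 and 10.68 in 6M cKO, 10.15, 11.02, 11.81 and 9.79 in 14M CT, and 8.34, 10.63, 8.46 and 10.60 in 6M CT. Its difference was 0.32 (SE 0.50; limma adjusted p = 0.71), and the arrays labelled 6M cKO were not lower than 6M CT (difference 0.87, adjusted p = 0.352). Where its probes lie relative to the deleted exons is not known here, so its level checks nothing about the labels, and all groups are named by their labels. Hif1a differed by 0.07 (SE 0.29; adjusted p = 0.90).

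The younger knockout differed from the older control at 3070 members, 16.4% of them, by limma with Benjamini-Hochberg adjustment over all 22206 probe sets at an adjusted p under 0.05. Of these 1892 (10.1% of members) were higher in 14M CT and 1178 (6.29%) higher in 6M cKO, and 1679 exceeded 2-fold. Among all 22206 probe sets 17.5% were called. The arrays of the groups did not overlap at 3199 members (17.1%). The split by direction moved with the scaling: when each array was shifted to 1 median, which moved the median of all genes by 0.13, 3212 members were called, 75.1% of them higher in 14M CT against 61.6% as deposited. Quantile normalization gave 2690 calls, 64.7% higher. With sex as a covariate 2143 members were called, 2012 of them among the 3070. Within females (1 6M cKO against 3 14M CT arrays) 301 were called and within males (3 against 1) 2066, where the lone array is assumed to vary like the other groups. Calls of single genes were followed with 1 array left out only for the 164 genes chosen by the naming rule given with the processing. Among them, the calls of Adipoq, Aldoc, Aqp1, Atf4, Atf7ip, Atg7, Bst2, Ccl2, Cd79b, Emcn, Fcgr1, Gli3, Hif3a, Hspb8, Lyz2, Map1lc3a, Mmp14, Nfat5, Pparg, Rpl32, Rps18, S100a8, Sel1l, Sorl1, Tnnt3, Ulk1 and Vcan were lost when 1 array or another of these groups was left out. Genes named below outside that rule, such as Adm, Cry1, Per1, Nfil3, Slc6a6 and Col6a3, were not followed in this way.

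**Figure D1:**
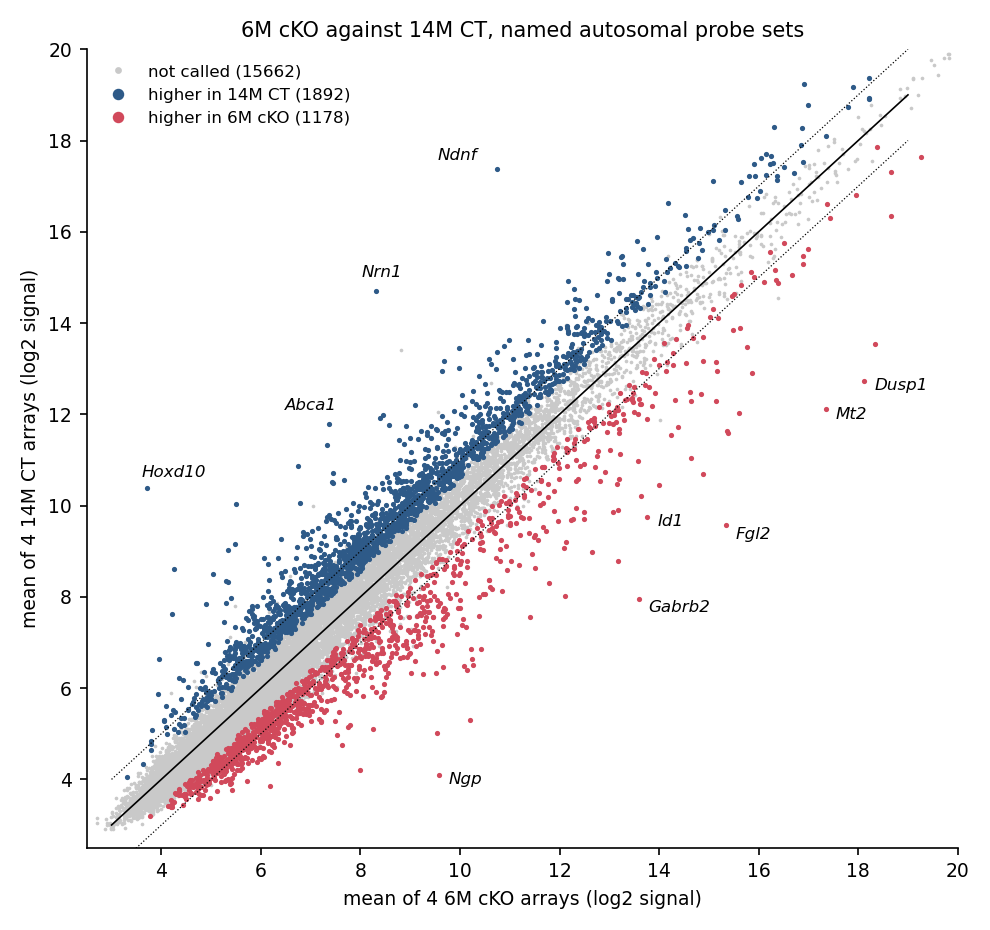
Mean log2 intensity of each of 18732 members over the 4 6M cKO arrays (x axis) against its mean over the 4 14M CT arrays (y axis). The solid line is equality and the dotted lines are differences of 1 (2-fold); 1892 members called higher in 14M CT lie above the line, 1178 called higher in 6M cKO below it, and the other 15662 were not called.

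What "already at the older level" can mean was set by the older and younger controls. Between 6M CT and 14M CT, 6265 members differed (33.4%), 3360 higher and 2905 lower at 14 months, and 3154 of them by over 2-fold. This comparison shares the 14M CT arrays with the first. The comparison of 6M cKO with 6M CT (693 members called, 3.7%, and 55 with sex as a covariate) shares the 6M cKO arrays. The 3 sets of values are therefore not independent. A member with a control age change was put at the older level where 14M CT and 6M cKO were not called different and the 95% interval of their difference lay within 2-fold. It was put short of the older level where the difference was called in the direction of the age change, past it where called in the other direction, and unresolved otherwise. Both differences use the same 14M CT arrays, so noise in those arrays moves both the same way and favours short over past. The counts of these classes describe the arrays and were not tested against each other.

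Most large age changes had not been reached by the younger knockout. Of the 3154 members whose control age change exceeded 2-fold, 385 (12.2%) lay at the older level in 6M cKO, 261 of 1927 rises and 124 of 1227 falls. Of those 385, 180 were also called different from 6M CT. A further 1756 (55.7%) were short of the older level, 1006 (31.9%) were unresolved, and 7 lay past it. Over all 6265 control age changes, 2034 (32.5%) were at, 2410 (38.5%) short, 11 past and 1810 unresolved. The share at the older level is larger there because a small age change fits inside the 2-fold limit even where 6M cKO had not moved, and only 292 of the 2034 were also called different from 6M CT. Where a gene is named below only as lying at the older level, the class does not show that 6M cKO had moved.

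The set at the older level was sensitive to how the arrays were handled. Of the 385 with age changes over 2-fold, 336 stayed at the older level under quantile normalization, 317 without 14M CT array 4, 244 with sex as a covariate and 171 without 6M cKO arrays 3 and 4. In each of these settings 0 of the 385 moved past the older level, and 1, without those 6M cKO arrays, became short of it. The others became unresolved or lost the control age call. Of all 2034, 794, 994, 1340 and 1065 stayed in the same settings.

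**Figure D2:**
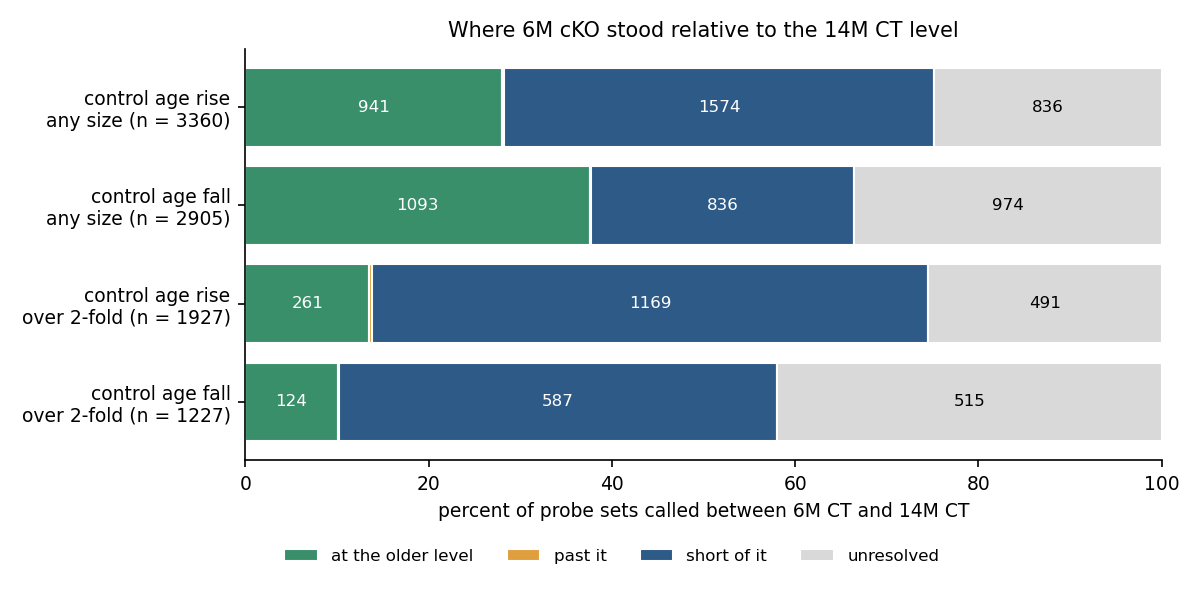
Stacked bars give the percent of members with a called control age change that lay at, short of, past or unresolved against the 14M CT level in 6M cKO, for all age changes and for those over 2-fold, with rises and falls apart. Numbers in the bars are members. Among changes over 2-fold the short class takes 60.7% of rises and 47.8% of falls, and the class at the older level 13.5% and 10.1%.

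Among the genes at the older level, the 6 largest control age rises were those of Klf10, Pls1, Klf4, Jund, Mapk6 and Tubb2b. Klf10, a zinc-finger repressor induced early by TGF-β, read 7.43, 7.66, 6.51 and 6.56 in 6M CT. It read 9.10, 10.22, 10.72 and 10.32 in 6M cKO and 10.09, 9.75, 9.40 and 9.85 in 14M CT. Every 6M cKO and 14M CT array lay above every 6M CT array, and the groups of interest overlapped. The difference was -0.32 (SE 0.32; 95% interval -1.0 to 0.36), beside a control age change of 2.73 (limma adjusted p = 1.5e-05).

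Klf4, a Krüppel-like factor expressed in differentiated and stressed cells, read 8.79, 8.66, 8.76 and 8.82 in 6M cKO and 9.18, 8.96, 8.54 and 9.75 in 14M CT, against 6.46 to 7.61 in 6M CT. Its difference was 0.35 (95% interval -0.26 to 0.96) and its control age change 2.15. Jund, an AP-1 subunit, read 13.36, 13.64, 13.30 and 13.52 in 6M cKO, 13.23, 13.30, 13.59 and 14.71 in 14M CT and 11.23 to 11.93 in 6M CT. Its 6M cKO arrays lay within the range of the older controls, with a difference of 0.25 (95% interval -0.36 to 0.86). Pls1, which encodes an actin-bundling plastin, Mapk6, an atypical MAP kinase, and Tubb2b, a β-tubulin, rose by 2.23, 2.02 and 1.99 with control age. Their differences from 6M cKO were 0.15, -0.03 and 0.17.

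Genes that fell with control age were found at the older level as well. Adgrg6, an adhesion receptor required for Schwann cell myelination and with known roles in spine alignment, read 9.07, 9.27, 8.89 and 9.19 in 6M CT. It read 6.40, 6.76, 6.81 and 7.08 in 6M cKO and 6.08, 7.24, 6.93 and 5.61 in 14M CT, so no array of either reached the young controls. The difference was -0.30 (95% interval -0.90 to 0.31), the control age change -2.64 and the 6M cKO minus 6M CT difference -2.34 (adjusted p = 0.000376). Ankrd27, an endosomal trafficking protein, read 13.04, 12.60, 13.04 and 12.64 in 6M cKO, 12.38, 12.75, 12.63 and 12.73 in 14M CT and 13.71 to 14.57 in 6M CT. The phosphoinositide-binding adaptor Dapp1, the sialyltransferase St6galnac5, the zinc-finger gene Zfp142 and the adhesion receptor Adgra1 had control age changes of -1.75, -1.61, -1.57 and -1.51, and differences from 6M cKO of 0.03, -0.09, -0.36 and -0.30. St6galnac5 lay below the background level in 6M cKO (group mean 4.91 against 5.23), so its closeness to 14M CT is a closeness near background.

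How firmly these 12 genes sat at the older level varied. Under 29 alternative settings Ankrd27 stayed in the class in 27, St6galnac5 in 26, Adgra1 in 25 and Jund in 23, but Klf10 in 16, Tubb2b in 14 and Mapk6 in 8. Not all of these settings could move a gene. A limit of 3-fold only widens the class, and keeping only age changes over 2-fold left all 12 as they were. Stricter thresholds for a call also left 12 of 12, and leaving out a 6M CT array does not change the difference itself. St6galnac5 was removed by the filter on dim probe sets, counted here as not staying. With sex as a covariate 5 of 12 stayed, within females 1 of 12, and with a limit of 1.5-fold in place of 2-fold 0 of 12. In these settings none of the 12 became called short of or past the older level. Among males, where no 6M CT array allows the class, Adgrg6 differed by -1.27 (limma adjusted p = 0.028).

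**Figure D3:**
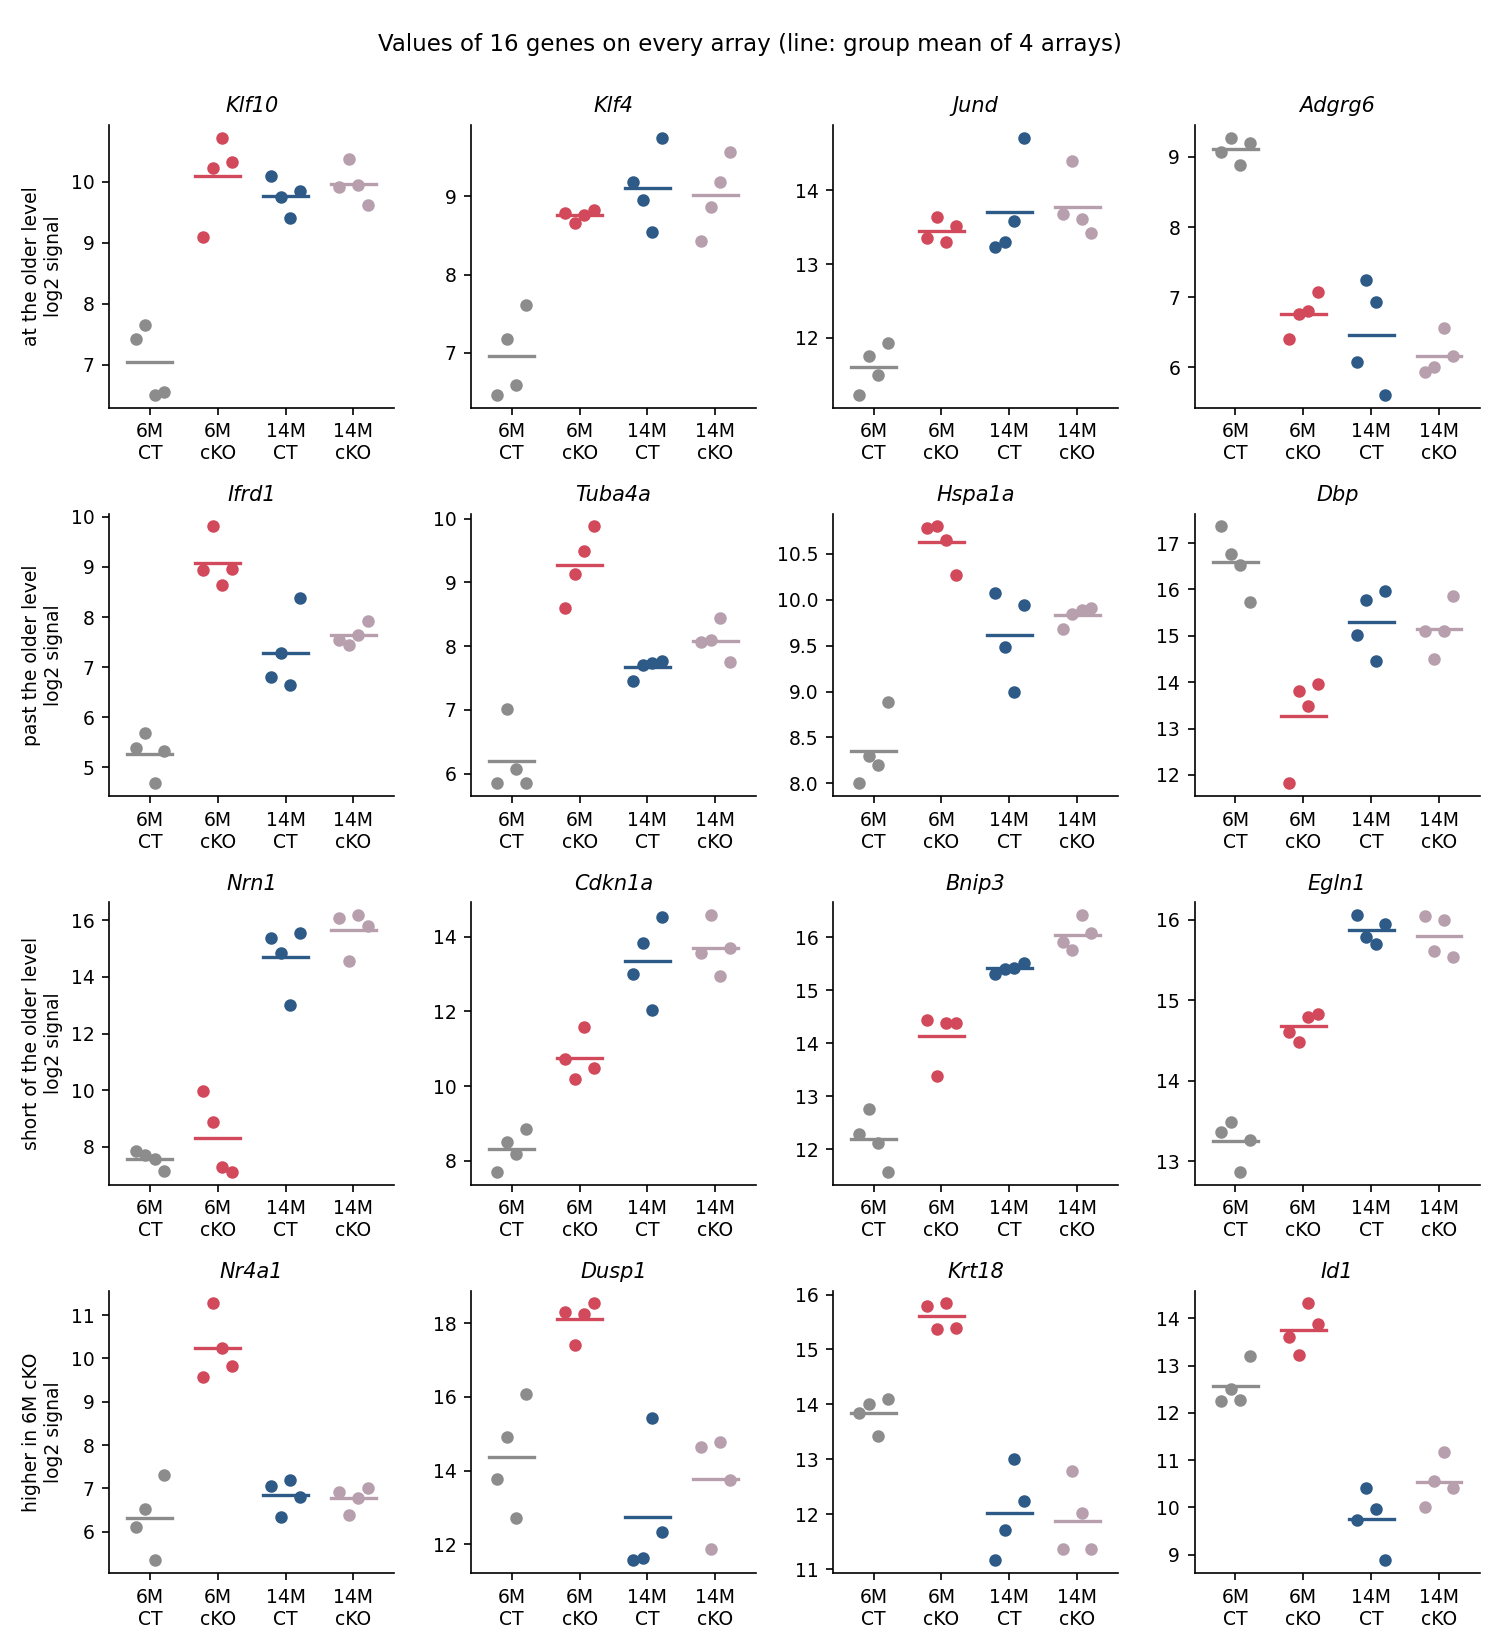
Log2 intensity on each array (dots) of 16 genes in 6M CT, 6M cKO, 14M CT and 14M cKO, with the group mean as a line. For Klf10, Klf4, Jund and Adgrg6 the 6M cKO arrays sit with 14M CT and apart from 6M CT; for Ifrd1, Tuba4a, Hspa1a and Dbp they sit beyond 14M CT, and for Nrn1, Cdkn1a, Bnip3 and Egln1 they sit below it.

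In 11 members the younger knockout lay past the older control. Ifrd1, a transcriptional coregulator induced by growth factors and stress, read 5.38, 5.68, 4.68 and 5.33 in 6M CT, 8.94, 9.81, 8.63 and 8.96 in 6M cKO and 6.80, 7.28, 6.65 and 8.38 in 14M CT. The 3 groups did not overlap, and the difference was -1.81 (SE 0.33; limma adjusted p = 0.0015) beside a control age change of 2.01. Tuba4a, an α-tubulin, read 8.60, 9.14, 9.50 and 9.88 in 6M cKO, 7.46, 7.70, 7.74 and 7.77 in 14M CT and 5.85 to 7.01 in 6M CT, again in 3 ranges without overlap (difference -1.61, adjusted p = 0.00097). Errfi1, which dampens EGF receptor signalling, differed by -2.17 (adjusted p = 0.0035). The remaining rises past the older level were Hspa1a, Hspb8, Klhl21, Plcd3, Otud1 and Btbd3, the last 4 named after their values were seen.

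Dbp, a clock-controlled transcription factor, was the larger of the 2 falls. It read 17.36, 16.77, 16.53 and 15.72 in 6M CT, 11.82, 13.82, 13.49 and 13.97 in 6M cKO, and 15.01, 15.77, 14.45 and 15.97 in 14M CT. The knockout arrays lay below all arrays of both control groups, with a difference of 2.02 (SE 0.45; adjusted p = 0.0056) in the opposite direction to the control age change of -1.29. Atf7ip, a cofactor of histone H3K9 methylation, was the other, with a difference of 0.85 (adjusted p = 0.015).

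The largest fitted difference was that of the homeobox gene Hoxd10. Hoxd10 read 3.51, 3.63, 3.98 and 3.72 in 6M cKO and 10.5, 10.81, 9.74 and 10.47 in 14M CT, a difference of 6.67 (SE 0.27; adjusted p = 4.0e-11). Hoxd8, Hoxd9 and Hoxa10 differed by 4.55, 4.36 and 3.69. The 6M cKO values of Hoxd10 and Hoxd9 lay below the background level, so their differences are not exact sizes. These homeobox genes set position along the body axis. They were low in both genotypes at 6 months and high in both at 14 months: Hoxd10 read 3.72 to 4.31 in 6M CT and 10.19 to 11.50 in 14M cKO. Grouped after their values were seen, 5 of 18 measured Hox genes numbered 8 to 13 differed by more than 1 (Hoxa10, Hoxd8, Hoxd9, Hoxd10 and Hoxd11), as did 3 of 15 numbered 1 to 7, with medians of 0.27 and 0.24. The labels give no disc level, and a part of dissection level in these values was not tested.

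Nrn1, Ndnf, Abca1 and Lbp were also among the largest differences toward the older control. Nrn1, a membrane-anchored neurite-promoting protein, read 9.99, 8.88, 7.29 and 7.12 in 6M cKO, 15.38, 14.86, 13.01 and 15.55 in 14M CT and 7.14 to 7.86 in 6M CT. Its difference was 6.38 (adjusted p = 2.7e-06). Ndnf, a secreted neurotrophic factor, read 10.78, 10.56, 10.24 and 11.43 in 6M cKO, 17.23, 17.47, 16.29 and 18.47 in 14M CT and 12.41 to 13.56 in 6M CT. Here the knockout lay below the young controls (6M cKO minus 6M CT -2.21, adjusted p = 0.0036), farther from the older level than they were. The cholesterol exporter Abca1 and the lipopolysaccharide-binding protein Lbp differed by 4.42 and 4.13. Pltp, which transfers phospholipids between lipoproteins, stood between the control ages: 7.78 to 9.0 in 6M CT, 9.81 to 10.16 in 6M cKO and 12.40 to 14.49 in 14M CT. Sorl1, a sorting receptor, was spread from 7.46 to 14.00 over the 6M cKO arrays, against 12.64 to 14.15 in 14M CT (difference 2.63, adjusted p = 0.033).

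In the other direction, the largest differences were in genes that had fallen with control age and were high in the younger knockout. Fgl2, a fibrinogen-like protein, read 16.17, 15.16, 14.90 and 15.11 in 6M cKO and 8.90, 9.64, 11.62 and 8.15 in 14M CT, and it was 54.1-fold higher in 6M cKO (difference -5.76, adjusted p = 5.6e-06). Gabrb2, a GABA-A receptor subunit, and Mt2, a metal-binding metallothionein, differed by -5.63 and -5.24. Their 6M cKO minus 6M CT differences were -0.44, 0.61 and -0.10, none of them called. The noncoding RNA Ipw differed by -3.42 (adjusted p = 0.011), with 6M cKO from 12.15 to 14.50 and 14M CT from 7.67 to 12.84, a call lost without 6M cKO arrays 3 and 4. The granule genes Ngp, S100a9 and S100a8 differed by -5.47, -4.89 and -4.53. In 14M CT Ngp lay below the background level (group mean 4.10 against 4.77), so its difference is not an exact size. All of these granule genes are themselves on the neutrophil marker list, so that they were high where its mean was high is built in. Ngp read 7.04, 5.33, 12.41 and 13.50 over the 6M cKO arrays.

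Immediate early genes were higher in the younger knockout than in the older control. Of 21 on the list, 11 were called higher in 6M cKO and 0 higher in 14M CT (12 and 0 at an unadjusted limma p under 0.05), against 6.29% and 10.1% of all members, with a median difference of -1.25 beside -0.03 over all members. The orphan nuclear receptor Nr4a1 read 9.58, 11.27, 10.24 and 9.83 in 6M cKO, 7.06, 6.34, 7.19 and 6.80 in 14M CT and 6.10, 6.52, 5.34 and 7.30 in 6M CT. The 6M cKO arrays were above all arrays of both control ages, with a difference of -3.38 (SE 0.37; limma adjusted p = 1.7e-05). Dusp1, a phosphatase that turns off MAP kinases, read 18.31, 17.40, 18.25 and 18.54 in 6M cKO, 11.57, 11.63, 15.43 and 12.33 in 14M CT and 12.72 to 16.09 in 6M CT, and it was 41.8-fold higher in 6M cKO than in 14M CT (adjusted p = 0.00026).

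The stress factor Atf3 and the AP-1 subunits Fos, Fosb and Junb were also higher in 6M cKO than in 14M CT. Atf3 read 12.26, 12.77, 13.20 and 14.46 in 6M cKO and 9.92, 9.80, 8.97 and 10.94 in 14M CT (difference -3.27, adjusted p = 0.00030). Fos read 14.17, 10.56, 10.32 and 12.11 in 6M cKO and 8.37, 8.20, 8.87 and 7.74 in 14M CT, a difference of -3.50 (adjusted p = 0.0039) that varied widely among the knockout arrays. Fosb, Junb, Egr1, Egr2, Nr4a3, Ier2 and Btg2 were the other called members, with differences from -2.73 to -0.79. Jun (difference -1.02, adjusted p = 0.17), Zfp36 (-2.14, adjusted p = 0.062) and Ier3 (1.39, adjusted p = 0.18) were not called. Klf4, Klf6 and Fosl2 lay at the older level instead. The count was 11 under quantile normalization, under the median shift and with sex as a covariate, 7 without 6M cKO arrays 3 and 4, 9 within females and 4 within males. The labels give neither time of day nor the interval from death to RNA, and a part of either was not tested.

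Promoters of these genes are shown because 9 of the 9 called members with a RefSeq promoter entry held the CREB half-site TGACG, on either strand, within 250 bases before the start. Over the list 11 of 16 with an entry held it, against 23.6% of 14992 members and 17.8% of 32851 windows. The full site TGACGTCA, which contains the half-site on both strands, was in 2 of 16 (Dusp1 and Btg2), against 2.29% of members. Motifs and genes were chosen after the values were seen, and a match describes letters in the window only. The 150 bases before the start of each gene, from RefSeq on GRCm38.p6, read 5′ to 3′ along the gene's strand, with TGACG or its reverse complement CGTCA in capitals:
Nr4a1 (chr15:101266696-101266845, plus strand): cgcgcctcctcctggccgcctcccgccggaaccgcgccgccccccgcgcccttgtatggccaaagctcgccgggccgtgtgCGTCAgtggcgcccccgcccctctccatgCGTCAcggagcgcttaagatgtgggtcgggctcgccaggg
Dusp1 (chr17:26508473-26508622, minus strand): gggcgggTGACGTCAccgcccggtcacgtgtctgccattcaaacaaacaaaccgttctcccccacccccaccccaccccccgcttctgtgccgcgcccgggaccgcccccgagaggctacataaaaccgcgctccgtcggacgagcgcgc
Atf3 (chr1:191183334-191183483, minus strand): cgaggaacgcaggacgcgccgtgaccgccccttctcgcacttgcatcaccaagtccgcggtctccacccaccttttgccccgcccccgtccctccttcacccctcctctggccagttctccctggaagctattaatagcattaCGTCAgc
Fos (chr12:85473740-85473889, plus strand): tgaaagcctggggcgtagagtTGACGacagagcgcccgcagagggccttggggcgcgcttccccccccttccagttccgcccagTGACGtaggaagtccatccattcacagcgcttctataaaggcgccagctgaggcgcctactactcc
Junb (chr8:84978749-84978898, minus strand): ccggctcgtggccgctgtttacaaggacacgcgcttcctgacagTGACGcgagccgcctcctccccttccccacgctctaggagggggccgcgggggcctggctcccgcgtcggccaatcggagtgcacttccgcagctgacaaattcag
The matches begin 69 and 40 bases before the start in Nr4a1, 143 and 140 in Dusp1, 7 in Atf3, 129 and 66 in Fos and 106 in Junb. In Dusp1 both belong to the single palindromic site.

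**Figure D4:**
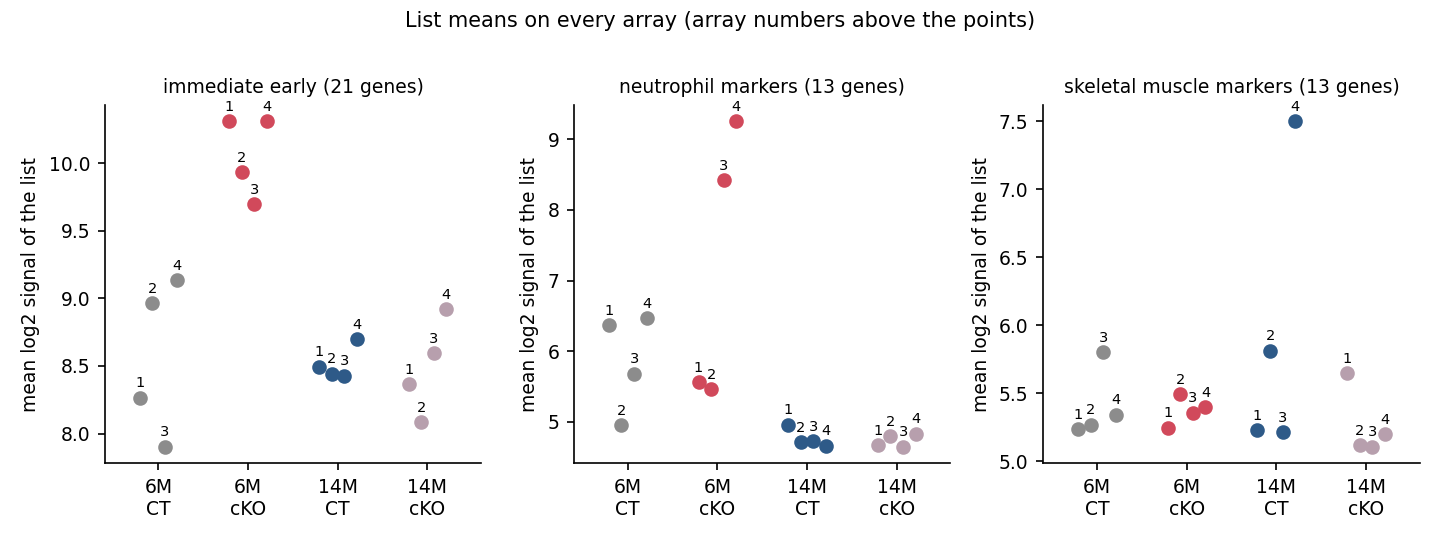
Mean log2 intensity per array (dots) over 21 immediate early, 13 neutrophil and marrow myeloid and 13 skeletal muscle genes in the 4 groups. The immediate early mean is 9.70 to 10.31 in 6M cKO and 8.43 to 8.70 in 14M CT; the neutrophil mean separates 6M cKO arrays 3 and 4, and the muscle mean 14M CT array 4, from the rest.

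Heat shock genes were in part higher in the younger knockout. Of 11 heat shock genes measured, 5 were called higher in 6M cKO (Hspa1a, Hspb8, Hsph1, Hspd1 and Hsp90aa1) and 0 in 14M CT, also 0 at an unadjusted limma p under 0.05. Over all members 6.29% were called higher in 6M cKO and 10.1% in 14M CT. Hspa1a, an inducible Hsp70, read 8.0, 8.30, 8.20 and 8.89 in 6M CT, 10.78, 10.80, 10.65 and 10.27 in 6M cKO and 10.07, 9.48, 8.99 and 9.94 in 14M CT. It had risen with control age by 1.27 and lay past that level in 6M cKO, with a difference of -1.0 (SE 0.26; adjusted p = 0.0086). Its near-identical copy Hspa1b was at the older level (difference -0.20), and signal shared between the copies makes both uncertain. Hsph1, a nucleotide exchange factor for Hsp70, read 10.29, 9.53, 10.34 and 9.72 in 6M cKO and 7.55, 7.84, 7.70 and 7.94 in 14M CT. That is 4.64-fold higher in 6M cKO (adjusted p = 0.00013). The small chaperone Hspb1 had risen by 1.80 with control age and differed by -0.20.

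The heat shock element core GAANNTTC, on either strand, was in the 250 bases before the start of 5 of 9 heat shock genes with an entry, against 6.96% of members. Among called members with an entry it was in 2 of 4 (Hspa1a and Hspd1). Hspb8 also lay past the older level, and no match was recorded for it. Hspa1a is shown as a member past the older level that held a match, with the match in capitals:
Hspa1a (chr17:34972157-34972306, minus strand): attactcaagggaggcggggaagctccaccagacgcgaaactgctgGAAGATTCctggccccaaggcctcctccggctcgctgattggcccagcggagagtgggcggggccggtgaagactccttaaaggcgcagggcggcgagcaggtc
The match begins 104 bases before the start.

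Of 16 genes of the endoplasmic reticulum stress response, 4 were higher in 14M CT (Hsp90b1, Ern1, Dnajc3 and Sel1l, by 0.65 to 0.82) and 1 in 6M cKO, the transcription factor Atf4, against 10.1% and 6.29% of all members. Atf4 read 13.67, 14.20, 12.66 and 12.63 in 6M cKO and 11.58, 11.88, 11.91 and 12.16 in 14M CT (difference -1.41, adjusted p = 0.019). The luminal chaperone Hspa5 and the splice-activated factor Xbp1 lay at the older level. Without 6M cKO arrays 3 and 4, 1 of the 16 was higher in 14M CT, and without 14M CT array 4, 2 were.

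Within the HIF pathway the hydroxylase Egln1 was partway to the older level. It read 13.37, 13.49, 12.87 and 13.26 in 6M CT, 14.61, 14.48, 14.79 and 14.83 in 6M cKO and 16.06, 15.78, 15.70 and 15.95 in 14M CT. The 3 groups rose in steps without overlap. The control age change was 2.62, the 6M cKO minus 6M CT difference 1.43, and the remaining difference 1.20 (SE 0.20; adjusted p = 0.00053). Of 11 pathway genes, 2 were called (18.2%, against 16.4% of all members), Egln1 and Hif3a (0.71, with 6M cKO below the background level), both higher in 14M CT, and the same count passed an unadjusted p under 0.05. Vhl lay at the older level.

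Of 21 other hypoxia-responsive genes, 5 were higher in 14M CT (Bnip3, Adm, Ankrd37, Ddit4 and Higd1a) and 1, Angptl4, in 6M cKO, against 10.1% and 6.29% of all members. Bnip3, a mitochondrial mitophagy receptor, read 12.29, 12.76, 12.11 and 11.57 in 6M CT, 14.43, 13.37, 14.38 and 14.37 in 6M cKO and 15.30, 15.40, 15.42 and 15.51 in 14M CT. It too stood between the control ages in every array, with a difference of 1.27 (SE 0.29; adjusted p = 0.0036). Higd1a, a small mitochondrial protein, showed the same order, with 11.20 to 11.71, 12.66 to 13.16 and 13.91 to 15.84. Ddit4, an mTOR inhibitor, did not: it read 10.93, 7.82, 7.65 and 7.16 in 6M cKO, 7.94 to 11.26 in 6M CT and 11.33 to 12.34 in 14M CT (difference 3.53, adjusted p = 0.0024). The vasoactive peptide Adm read 8.49 to 10.74 in 6M cKO and 11.64 to 14.37 in 14M CT (adjusted p = 0.022). Without 14M CT array 4, 3 of the list were higher in 14M CT, and without 6M cKO arrays 3 and 4 the calls of Ddit4 and Angptl4 were lost.

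Of 17 glucose uptake and glycolysis genes, 5 were at the older level by the rule and others lay above the older control. Slc2a1, the main glucose transporter, read 19.28, 19.42, 19.63 and 19.56 in 6M cKO, 19.81, 19.78, 19.65 and 19.81 in 14M CT and 17.84 to 18.37 in 6M CT. It was at the older level by the rule, with a difference of 0.29, although the arrays of the groups did not overlap and its values lay near the table's highest, 19.93. Pdk1, Ldha, Pkm and Gapdh were at the older level too, with differences of 0.03, 0.01, 0.01 and 0.29 beside control age rises of 1.24, 0.88, 0.66 and 0.63. The rises of Ldha, Pkm and Gapdh were under 2-fold, so for them the class does not show that 6M cKO had moved. Of 17 measured genes 6 were higher in 6M cKO (Slc2a3, Pfkl, Pfkp, Aldoc, Hk1 and Aldoa) and 1, Pfkfb3, in 14M CT, against 6.29% and 10.1% of all members. The high-affinity transporter Slc2a3 read 12.72, 11.48, 12.96 and 12.83 in 6M cKO and 9.44, 9.57, 9.13 and 10.72 in 14M CT (difference -2.78, adjusted p = 0.00027), above 9.82 to 11.68 in 6M CT on all arrays but 1. The liver-type phosphofructokinase Pfkl differed by -2.00. The list's median of -0.28 became 0.01, with 0 and 3 calls, without 6M cKO arrays 3 and 4.

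The HIF core ACGTG, on either strand, was in the 250 bases before the start of 3 of 8 pathway genes, 10 of 15 other hypoxia-responsive genes and 8 of 16 glycolysis genes with an entry, against 20.7% of members. Among called members with an entry, the core was in 1 of 2, 3 of 5 and 2 of 6, in the same order. It overlaps the E-box CACGTG. Higd1a also stood between the control ages, and no match was recorded for it. Bnip3 and Egln1 are shown as genes that stood between the control ages and held a match, with ACGTG or its reverse complement in capitals:
Bnip3 (chr7:138909507-138909656, minus strand): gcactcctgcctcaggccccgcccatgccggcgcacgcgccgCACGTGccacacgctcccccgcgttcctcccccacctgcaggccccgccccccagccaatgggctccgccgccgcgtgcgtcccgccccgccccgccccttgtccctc
Egln1 (chr8:124949255-124949404, minus strand): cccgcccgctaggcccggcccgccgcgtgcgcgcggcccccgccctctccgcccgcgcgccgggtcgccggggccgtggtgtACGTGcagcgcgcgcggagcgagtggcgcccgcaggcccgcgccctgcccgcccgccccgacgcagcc
In Bnip3 the matches of both strands form 1 E-box that begins 108 bases before the start, and in Egln1 the match begins 68 bases before it.

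Respiratory chain and autophagy genes that differed were higher in the older control. Of 24 nuclear-encoded respiratory chain and ATP synthase subunits, 9 were higher in 14M CT and 0 in 6M cKO by limma (12 and 0 at an unadjusted p under 0.05), with a median difference of 0.51, against 10.1% and 6.29% of all members. Sdhb of complex II read 8.88, 8.84, 9.25 and 8.94 in 6M cKO, 10.62, 10.98, 10.68 and 11 in 14M CT and 8.81 to 9.27 in 6M CT, so the knockout arrays overlapped the young controls and not the older ones (difference 1.84, adjusted p = 6.8e-06). Uqcrc1 and Ndufv1 differed by 1.34 and 1.31, and Ndufa4, Uqcrfs1, Atp5a1, Atp5b and Atp5c1 lay at the older level. The count was 6 with sex as a covariate, 6 without 14M CT array 4 and 5 without 6M cKO arrays 3 and 4. Of 14 autophagy and lysosome genes 3 were higher in 14M CT (the autophagy enzymes Ulk1 and Atg7 and the autophagosome protein Map1lc3a) and 0 in 6M cKO by limma, 5 and 1 at an unadjusted p under 0.05, and 0 and 0 remained called without 14M CT array 4. Of 12 ribosomal protein genes 3 were higher in 14M CT (Rpl27, Rpl11 and Rpl32) and 1, Rps18, in 6M cKO, and 4 lay at the older level.

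Circadian clock genes differed in both directions, 4 of 17 each way, against 10.1% of all members higher in 14M CT and 6.29% higher in 6M cKO. Per3, a period repressor, read 6.95, 7.23, 8.12 and 8.41 in 6M cKO, 10.28, 10.59, 10.39 and 10.95 in 14M CT and 9.15 to 9.95 in 6M CT, with a difference of 2.88 (adjusted p = 1.2e-05). Hlf, which binds the same sites as Dbp, differed by 2.19, and the repressor Cry1 by 0.72. Npas2, a partner of BMAL1, read 11.50, 8.96, 9.70 and 10.43 in 6M cKO and 6.16, 5.88, 6.91 and 6.62 in 14M CT (difference -3.75, adjusted p = 4.0e-05). Nr1d1, Nfil3 and Per1 differed by -1.73, -1.15 and -0.89. Per3, Hlf, Dbp and Cry1 were lower in the knockout and Npas2, Nr1d1, Nfil3 and Per1 higher. Clock genes vary over the day, the time of dissection is not in the labels, and its part was not tested.

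**Figure D5:**
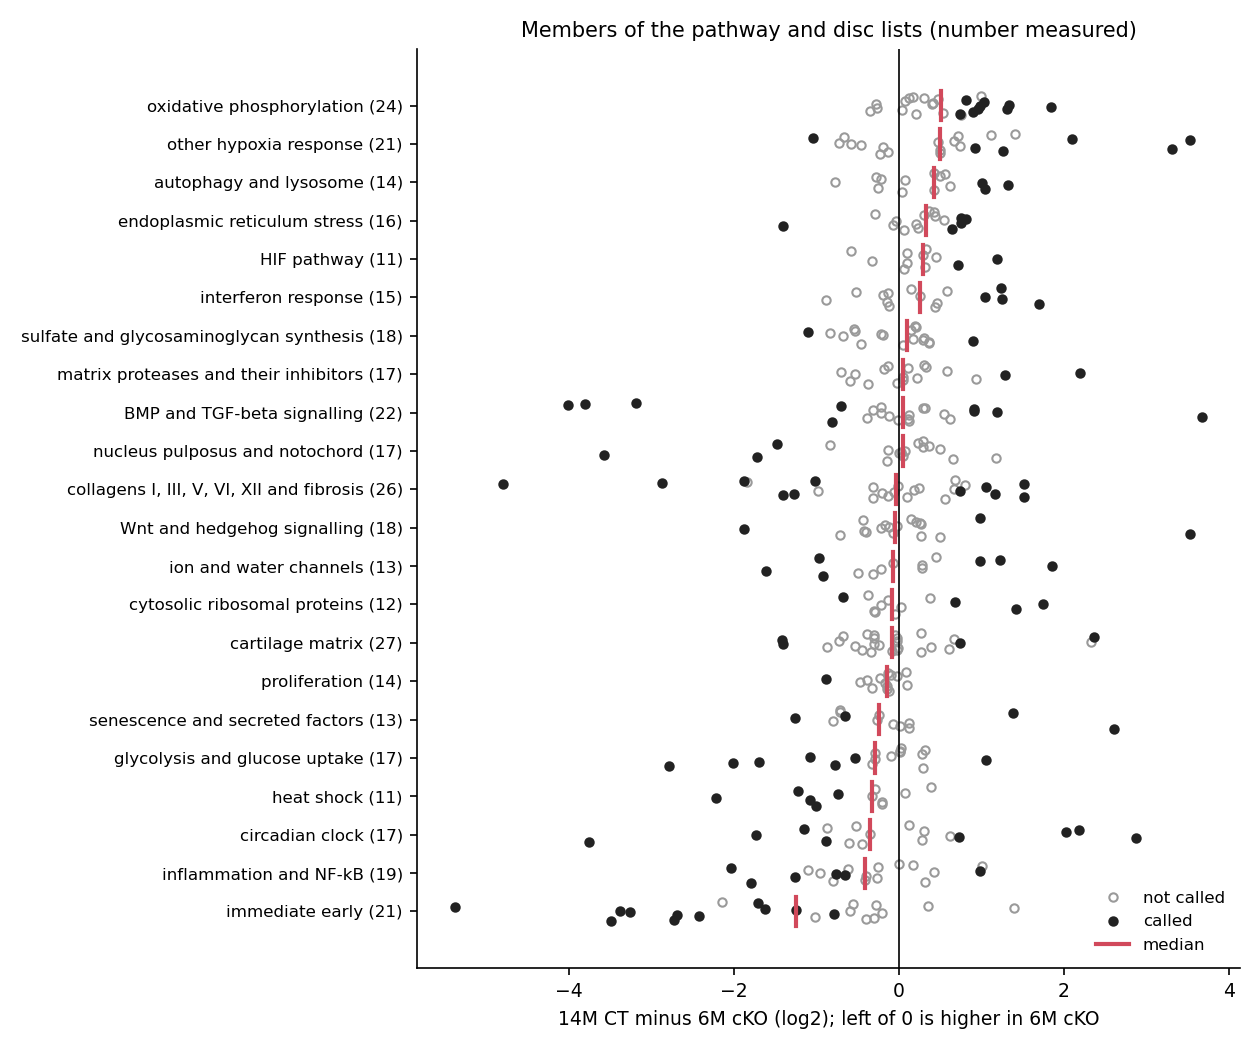
Difference 14M CT minus 6M cKO (log2) of every measured member of 22 pathway and disc gene lists; filled points were called and the red mark is the list's median. Immediate early genes lie lowest, with a median of -1.25, and oxidative phosphorylation genes have a median of 0.51.

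The keratin Krt18 and the signalling protein Shh were higher in the younger knockout than in the older control, on a marker list of which 17.6% was called against 16.4% of all members. Krt18, a simple-epithelium keratin of notochordal cells, read 13.85, 14.00, 13.42 and 14.09 in 6M CT, 15.79, 15.38, 15.84 and 15.40 in 6M cKO and 11.16, 11.72, 13 and 12.24 in 14M CT. It fell with control age and was higher still in the knockout, 11.9-fold above the older control (difference -3.57, SE 0.35, adjusted p = 5.4e-06). Shh read 9.88, 9.09, 9.49 and 9.07 in 6M cKO, like 8.99 to 10 in 6M CT, and 7.45, 7.43, 8.16 and 7.60 in 14M CT (difference -1.72). Basp1 was the third of 17 markers called, with 0 higher in 14M CT by limma. At an unadjusted p under 0.05, 4 were higher in 6M cKO and 3 in 14M CT, and 2 were called higher in 14M CT after quantile normalization or the median shift. Krt8, the usual partner of Krt18, lay at the older level (difference 0.05), and Krt19, Cd24a and Car3 differed by 0.00 to 0.08, Car3 with values near the highest of the table.

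Of 27 cartilage matrix genes 4 were called (14.8%, near the 16.4% of all members), 2 each way, and Col2a1, Col9a1, Col9a3, Matn4, Sox5 and Sox6 lay at the older level. The group means of Matn4 lay below the background level in both groups. The link protein Hapln1 read 16.61, 16.24, 16.58 and 15.98 in 6M cKO and 14.74, 14.81, 15.53 and 14.71 in 14M CT, a difference of -1.41 (adjusted p = 0.00074). Prelp, a leucine-rich repeat proteoglycan, differed by -1.42. The lubricant proteoglycan Prg4 read 7.63, 6.46, 6.55 and 6.29 in 6M cKO and 9.20, 9.08, 9.95 and 8.17 in 14M CT (difference 2.37, adjusted p = 0.00032), and Vcan differed by 0.74.

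Fibrosis-related genes were divided, 5 of 26 higher in 14M CT and 6 in 6M cKO, against 10.1% and 6.29% of all members. The collagen Col5a1, the adhesion protein Tgfbi, Col6a3, Tgfb1 and Sparc were higher in 14M CT, by 0.74 to 1.52. The mechanosensitive matricellular genes Ccn1 and Ccn2, the contractile gene Tagln, Col6a1, Col6a2 and Pdgfrb were higher in 6M cKO. Ccn1 read 17.67, 18.13, 18.67 and 18.92 in 6M cKO and 12.60, 12.60, 15.51 and 13.49 in 14M CT, with 6M CT from 14.68 to 16.79 (difference -4.80, adjusted p = 0.00010). Col6a1 and Col6a2 differed by -1.41 and -1.27 and Col6a3 by 1.17, so chains of the same collagen went opposite ways. Tgfb2 lay at the older level, with a control age rise of 1.69 and a difference of -0.01. Among 17 proteases and inhibitors the aggrecanase Adamts1 (2.20) and the membrane protease Mmp14 (1.29) were higher in 14M CT and 0 in 6M cKO by limma (3 and 1 at an unadjusted p under 0.05), and both calls were lost without 6M cKO arrays 3 and 4. Of 18 genes for glycosaminoglycan synthesis, Xylt2 was higher in 14M CT (0.90) and Chst11 in 6M cKO (-1.10). The call of Chst11 was also lost without 6M cKO arrays 3 and 4. The protease and glycosaminoglycan lists had 11.8% and 11.1% of their members called, below the 16.4% of all members.

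Id1, Id2 and Id3 were higher in the younger knockout and Grem1 in the older control, on a list of BMP and TGF-β genes with a median difference of 0.05. Id1, an inhibitor of helix-loop-helix factors induced by BMP, read 13.61, 13.22, 14.32 and 13.89 in 6M cKO, 9.74, 10.41, 9.97 and 8.88 in 14M CT and 12.26 to 13.21 in 6M CT. Every knockout array lay above every control array of either age, and the difference was -4.01 (SE 0.33; adjusted p = 8.5e-07). Id2 and Id3 differed by -3.80 and -3.19. Grem1, a secreted BMP antagonist, read 6.30, 4.62, 5.84 and 5.13 in 6M cKO and 10.42, 9.87, 8.01 and 8.32 in 14M CT (difference 3.68, adjusted p = 0.00015). Of 22 BMP and TGF-β genes 4 were higher in 14M CT (Grem1, Bmpr2, Tgfbr1 and Tgfbr3) and 5 in 6M cKO (Id1, Id2, Id3, Bmp2 and Smad7), against 10.1% and 6.29% of all members. The group means of Bmp2 and Smad7 lay below the background level in both groups.

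Of 18 Wnt and hedgehog genes Wnt16 (3.53) and the transcription factor Gli3 (0.99) were higher in 14M CT and Dkk3 (-1.88) in 6M cKO. That is 16.7% of the list called, near the 16.4% of all members. Wnt16 read 7.81, 8.34, 8.90 and 8.77 in 6M cKO, 11.67, 12.01, 11.76 and 12.51 in 14M CT and 8.56 to 9.20 in 6M CT, with the knockout overlapping the young controls only. Among 13 ion and water transport genes 3 were higher in 14M CT and 3 in 6M cKO, against 10.1% and 6.29% of all members. The osmosensitive channel Trpv4 read 7.67, 7.80, 7.64 and 7.89 in 6M cKO and 9.59, 8.99, 9.87 and 10 in 14M CT (difference 1.86). The chloride cotransporter Slc12a2 differed by -1.61, the osmotic transcription factor Nfat5 by 0.99 and its target Slc6a6 by 1.22. Medians of the ribosomal, cartilage, collagen, glycosaminoglycan, Wnt and ion lists changed sign under quantile normalization or the median shift, and no direction is given for them as groups.

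Of 19 inflammation genes 5 were higher in 6M cKO (Ptgs2, Il1b, Cxcl2, Ccl7 and Ccl2) and 1, Rela, in 14M CT, against 6.29% and 10.1% of all members. Ptgs2, the inducible prostaglandin synthase, read 7.31, 9.72, 8.97 and 8.17 in 6M cKO and 5.87, 6.64, 6.70 and 6.80 in 14M CT (difference -2.04, adjusted p = 0.0018). The cytokine Il1b read 6.58, 6.11, 7.82 and 8.75 over the 6M cKO arrays, higher on the arrays with the neutrophil markers, and 5.34 to 5.79 in 14M CT. Without 6M cKO arrays 3 and 4 the calls of Il1b, Cxcl2 and Ccl2 were lost and that of Ptgs2 was kept. Within females the call of Ptgs2 was lost too, and Ccl7 was not followed in this way. Of 15 interferon-response genes Ifit3, Irf9, Bst2 and Stat2 were higher in 14M CT (by 1.70, 1.25, 1.24 and 1.04) and 0 in 6M cKO by limma (5 and 0 at an unadjusted p under 0.05), and 4 were called under quantile normalization and 3 with sex as a covariate.

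Senescence markers were mixed. The cyclin-dependent kinase inhibitor Cdkn1a (p21) read 7.70, 8.49, 8.18 and 8.85 in 6M CT, 10.72, 10.20, 11.59 and 10.48 in 6M cKO and 13.01, 13.83, 12.05 and 14.54 in 14M CT. As with Egln1 and Bnip3, the knockout lay between the control ages on every array: the control age change was 5.05, the 6M cKO minus 6M CT difference 2.44 and the remaining difference 2.61 (SE 0.48; adjusted p = 0.0009). Cdkn2a (p16) read 3.41 to 4.07 in 6M cKO and 3.55 to 4.18 in 14M CT, below the background level. Igfbp5 was the other of 13 genes higher in 14M CT, and Cxcl2 and Ccl2 were higher in 6M cKO. Both of the latter calls were lost without 6M cKO arrays 3 and 4. Over all members 10.1% were higher in 14M CT and 6.29% in 6M cKO. Of 14 proliferation genes 1, Mcm2, was called (7.14%, against 16.4% of all members), higher in 6M cKO (-0.89), and 1 at an unadjusted p under 0.05.

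Of 13 neutrophil and marrow myeloid markers 10 were higher in 6M cKO, with a median of -1.70; without 6M cKO arrays 3 and 4 1 was, with sex as a covariate 5, and within females 0. For this and the marker lists below, the shares over all members were 6.29% higher in 6M cKO and 10.1% higher in 14M CT. Of 13 muscle markers Tnnt3 was higher in 14M CT (1.86), reading 5.13, 7.39, 4.92 and 8.76, 0 were without 14M CT array 4, and 5 were with sex as a covariate. Among 11 macrophage markers the engulfment receptor Mertk (2.04) was higher in 14M CT and Lyz2 and Fcgr1 in 6M cKO. The annulus marker Thbs2 (1.97) and the osteoclast factor Nfatc1 (1.35) were higher in 14M CT, 1 of 9 on each list. The growth plate marker Snorc (-2.51) was higher in 6M cKO, 1 of 10, as were Cd79b among 11 lymphocyte and Emcn among 11 endothelial markers. Adipocyte markers gave 1 call each way among 7 (Pparg and Adipoq), and 5 erythroid, 8 nerve and 7 bone markers gave 0. At an unadjusted limma p under 0.05 these last lists gave 1, 2 and 2. Mertk and Tnnt3 lay below the background level in 6M cKO, Adipoq in 14M CT, and Camp and Cd79b in both. Nr4a3 and Cxcl2, named above, lay below it in 14M CT, and Atg7 in 6M cKO. In bulk tissue, fewer cells of a type and less RNA per cell cannot be told apart.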

How the data were processed

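Total RNA of 16 nucleus pulposus samples was labelled with biotin and hybridised to Affymetrix arrays, per the labels' protocols. The deposited table holds the authors' log2 expression values of 22206 probe sets, from 2.46 to 19.93; which software, background correction, summarization and genome build were used is not given in the labels or file headers. Genes were named from the platform table: 19572 probe sets had 1 symbol, 0 several and 2634 none, and 840 with X or Y identifiers were left out.

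Values were used as deposited. limma 3.58.1 (R 4.3.3; lmFit, eBayes) fitted 4 group means to all 16 arrays, with Benjamini-Hochberg adjustment over 22206 probe sets and calls at an adjusted p under 0.05. On simulated data 33 of 100 changes of 1 and 96 of 100 changes of 2 were recovered with 10 false calls, 0 of the 100 changes of 2 were put within the 2-fold limit, and 94.8% of intervals held the true value. The simulated noise was independent and normal, with the same spread in every group, as limma assumes. The real groups differed in spread and in sex, so these figures check the code and not the intervals on the real arrays. Named genes were the 8 largest differences each way, the 6 (at the older level) or 4 (short, past) largest control age changes each way, and up to 4 of smallest p per gene list; others are named as list members. The members and lists were chosen with earlier results of these data known. Arrays were taken as male where 3 Y-linked genes averaged above 6. Alternatives were quantile normalization, a median shift, a filter on dim probe sets, 1 probe set per gene, array weights, another prior, fewer arrays, a replicate block, sex, and other thresholds. Promoters came from RefSeq (GRCm38.p6): 14992 of 18680 members matched. Tables and figures used Python 3.11.15, pandas 2.3.3 and matplotlib 3.10.9.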

Additional observations from a re-analysis of the deposited data

Results flagged for a closer look

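In 21 of 328 groups of 4 arrays tested over 164 named genes, 1 array stood far from the other 3; chance flags about 1 in 20 groups. In 6M cKO array 1 these were Hif1a (13.04), Hoxa10 (5.80), Mapk6 (8.50), Siah2 (9.90), Hspb8 (12.05) and Mbp (7.56). In 6M cKO array 2 they were St6galnac5 (4.54), Slc2a3 (11.48), Bnip3 (13.37) and Lamp1 (14.97), in array 3 Mt2 (15.81), and in array 4 Adgra1 (6.39) and Esam (6.86). In 14M CT array 1 they were Slc12a2 (16.27) and Col1a1 (7.36), in array 2 Hoxd9 (7.92), in array 3 Ndufs3 (12.31) and Hapln1 (15.53), and in array 4 Gabrb2 (7.15), Mcm2 (7.07) and Pmp22 (16.30).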

How the results depend on the processing

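The 3070 calls between 6M cKO and 14M CT became 1835 when only the arrays of these groups were fitted, 1302 at an adjusted p under 0.01, 1679 with a difference over 1, 1827 without 6M cKO arrays 3 and 4, 1164 without these and 14M CT array 4, and 301 within females. Leaving out 1 array gave 1935 (without 14M CT array 4) to 3371, and 1967 without 6M cKO array 2. Control ageing (6265) gave 3364 at 0.01 and 3154 with a difference over 1, and 4400 to 6328 with 1 array left out. The 693 calls of 6M cKO against 6M CT became 200 with the groups' arrays alone, 55 with sex, 118 at 0.01, 450 with a difference over 1, 84 without 6M cKO arrays 3 and 4, 118 without those 3 arrays and 43 within females, and 202 to 939 with 1 array left out. In the same order, members at the older level (2034) became 1326, 702 (at 0.01), 389, 1233, 694 and 415, with 1205 to 2513 on leaving out 1 array, 1273 with a filter on dim probe sets, 242 and 3615 with limits of 1.5-fold and 3-fold, and 385 for age changes over 2-fold. Members short of it (2410) became 1500, 1015, 1253, 1538, 929 and 247, and 1444 to 2560. Members past it (11) became 5 at 0.01, 6 with a difference over 1, 7 without the 3 arrays, 3 within females, 7 for age changes over 2-fold, and 7 to 23. The other settings left these counts within 1.5 times. Of 111 named genes called, 103 stayed called under quantile normalization, 105 under the median shift, 92 with sex, 77 without 6M cKO arrays 3 and 4, 41 within females and 67 within males, and 0 changed direction under any setting run. Same-numbered arrays of the groups did not deviate together (correlations -0.28 to 0.27), so the labels' numbers were not taken to pair samples; a replicate block gave 2944 calls, 2784 shared with the 3070. Apart from settings that fit fewer arrays or use another threshold, the cause was not tested. With 4 arrays a group, changes near 2-fold were often missed.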
